A study of Mus musculus with 2 samples.

Results

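Pericytes and vascular smooth muscle cells, together called mural cells, were looked for in droplet-based single-cell RNA sequencing of dissociated mouse skin squamous tumours. A cell was a member when at least 10 of every 10000 of its unique molecular identifiers (UMIs, 1 per captured transcript) came from 7 genes together, Rgs5, Notch3, Kcnj8, Abcc9, Higd1b, Ndufa4l2 and Myh11, with at least 5 such UMIs, and when 5 endothelial genes (Pecam1, Cdh5, Egfl7, Emcn and Flt1) together stayed under 10 per 10000. Cells also needed at least 500 genes, at least 1000 UMIs and at most 15% mitochondrial UMIs. The rule found 953 members among 30298 barcodes: 504 of 22259 in the library Eed iKO-D and 449 of 8039 in the library Ctrl-D. The levels of these 12 genes chose the members, so they are given as a description and support nothing else.

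Each library came from dorsal skin tumours of mice that were 5 months old and painted weekly with the carcinogen DMBA for up to 20 weeks. Eed iKO-D mice carried K14CrERT2 and Eed flox/flox and received topical hydroxytamoxifen once a day for 4 days from postnatal day 50. Ctrl-D mice were Eed flox/flox and received ethanol, the solvent. Eed encodes a scaffold protein of the Polycomb complex PRC2, and the Cre recombinase was driven by the keratin 14 promoter, which is active in epithelial cells and not in mural cells, so mural cells are neighbours of the targeted cells. With 1 library per group there is no replicate check, no p-value was computed, and genotype, hydroxytamoxifen and library cannot be told apart. The number and sex of the animals behind each library were not given in the sources used here. The labels name the cells epidermal cancer cells, while the tumours were digested whole, and both libraries held stromal cells.

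Mural cells wrap the endothelial tube of blood vessels. Pericytes sit embedded in the basement membrane of capillaries and small venules, while smooth muscle cells form contractile layers around arterioles, arteries and larger veins. Endothelial PDGF-B recruits both through the receptor PDGFRB, and Notch ligands on endothelium signal through NOTCH3 to hold their differentiation. In tumours the vessel coat is often thin or irregular, and the contractile programme of its cells can vary widely.

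The label held for some of the members only. In Eed iKO-D, 319 of the 504 members carried at least 3 UMIs of 10 other or shared mural genes (Myh11, Lmod1, Cnn1, Actg2 and Synpo2 on the contractile side, Kcnj8, Abcc9, Higd1b, Vtn and Steap4 on the pericyte side), and 185 did not. In Ctrl-D, 23 of the 449 members did, and 426 did not. The marker-low members had mostly entered through 1 gene: Ndufa4l2, which encodes a mitochondrial protein found in pericytes and is also a known target of hypoxia-inducible factor, gave 94.0% of their 7-gene sum in Eed iKO-D and 98.8% in Ctrl-D, and had a UMI in 168 of 185 and 425 of 426 of them. Rgs5, a regulator of G-protein signalling that is the most used pericyte marker, had a UMI in 48 of 185 marker-low members in Eed iKO-D and in 1 of 426 in Ctrl-D. Keratins 5, 14 and 6a together had a median of 242 and 298 per 10000 UMIs in the marker-low members of Eed iKO-D and Ctrl-D, and 16.6 and 2.56 in the marker-positive members. At 100 or more per 10000, these keratins were found in 158 of 185 and 398 of 426 marker-low members. The data thus went against the label for most of the marker-low members, which are called here by the gene most of them entered through, Ndufa4l2-high members. With Ndufa4l2 out of the sum, 331 and 24 members remained, of which 27 and 2 were marker-low, and for these the name does not describe how they entered. The marker-positive members alone are called mural cells from here on, a restriction made after the data were seen.

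**Figure D1:**
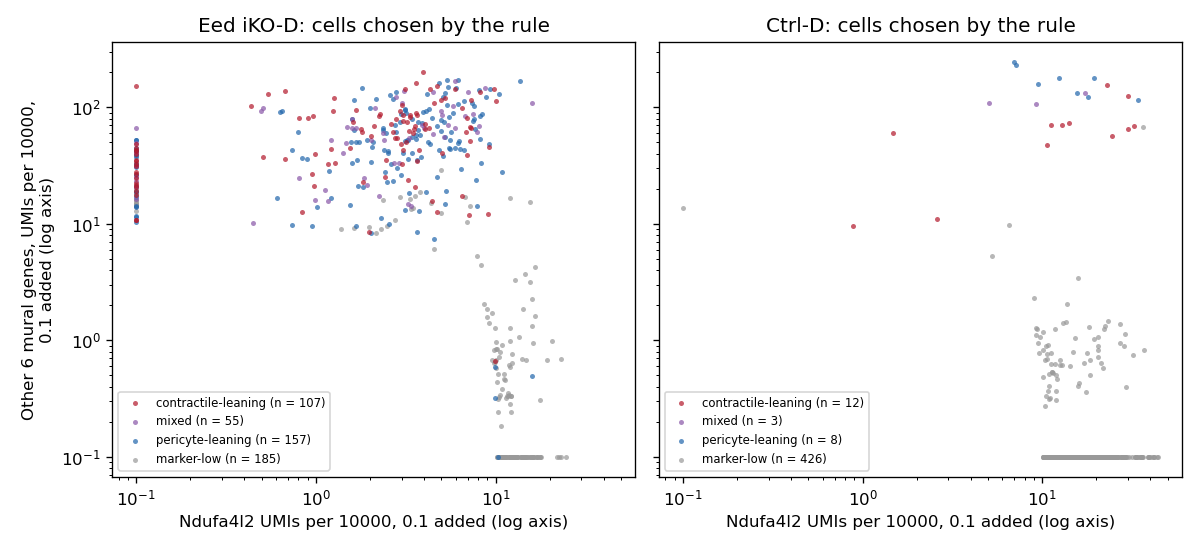
Each point is 1 member, with its Ndufa4l2 UMIs per 10000 across and those of the other 6 mural genes up the page (log axes, 0.1 added), for Eed iKO-D (left, 504 members) and Ctrl-D (right, 449 members), coloured by the markers it held. The grey 185 and 426 Ndufa4l2-high members (marker-low in the key) mostly lie at the high end of Ndufa4l2 with few UMIs of the other genes, and the 319 and 23 mural cells mostly lie at the high end of the other genes.

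Members just inside the limit, at 10 to 12 per 10000, numbered 84 in Eed iKO-D and 109 in Ctrl-D, of which 17 and 1 were marker-positive. Cells just outside it, at 8 to 10, numbered 130 and 133, of which 16 and 1 were marker-positive. Rgs5 was at 51.6 UMIs per 1000000 (CPM, over the summed UMIs of a set of cells) inside and 6.27 CPM outside in Eed iKO-D, and Ndufa4l2 at 958 and 829.9 CPM, so both sides of the limit were rich in Ndufa4l2 and poor in Rgs5. The endothelial limit kept out 38 cells in Eed iKO-D and 6 in Ctrl-D that otherwise met the rule. All of them were marker-positive, and in Eed iKO-D they held Rgs5 at 4079.7 CPM and Pecam1, the platelet and endothelial adhesion molecule, at 196 CPM. Their 5 endothelial genes together had a median of 14.2 per 10000. Mural cells held Flt1, 1 of the 5, themselves. It was at 308 CPM, beside Pecam1 at 6.97 CPM, in the 287 mural cells of Eed iKO-D low in keratin and immune UMIs. Which of the 5 genes kept the 38 cells out was not tested.

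The 319 mural cells of Eed iKO-D were 1.49% (1.33 to 1.66) of its 21475 cells that passed the filters, and the 23 of Ctrl-D were 0.308% (0.195 to 0.462) of its 7467. Intervals in parentheses are 95% ones and cover counting error only. A share of all cells also moves with the number of other cells recovered, so mural cells were set against endothelial cells alone as well. Mural cells were 46.6% (42.8 to 50.5) of mural plus endothelial cells in Eed iKO-D (319 against 365 cells) and 48.9% (34.1 to 63.9) in Ctrl-D (23 against 24 cells). The intervals overlap, and the Ctrl-D interval spans values on either side of that of Eed iKO-D. The endothelial class was not blood endothelium alone. It held lymphatic markers at 935 CPM in Eed iKO-D and 994 CPM in Ctrl-D, and melanocyte markers at 573 CPM in Ctrl-D. Against fibroblasts, the cells with collagen 1, Dcn, Lum, Pdgfra and Dpt, mural cells were 10.1% (9.03 to 11.2) of the sum in Eed iKO-D (319 against 2853 cells) and 6.65% (4.26 to 9.81) in Ctrl-D (23 against 323 cells).

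Depth differed between the libraries and with it the precision. Eed iKO-D held 289511009 UMIs and Ctrl-D 120500892. All cells that passed the filters had a median of 3192 UMIs in Eed iKO-D and 13283 in Ctrl-D. Cells that failed the rule only for having under 5 mural UMIs numbered 226 and 10, of which 7 and 2 were marker-positive. Floors in UMIs are harder to meet in shallow cells, and their part in the shares above was not tested. Mural cells alone had a median of 17037 UMIs and 4472 genes in Eed iKO-D, and of 6032 UMIs and 2470.0 genes in Ctrl-D. Summed, that is 6372078 and 166106 UMIs, so within-library comparisons were made in Eed iKO-D. The libraries shared 49 barcodes, none of them in mural cells. Gm42418, a transcript that overlaps ribosomal RNA, took 7.33% of mural UMIs in Eed iKO-D and 0.646% in Ctrl-D, as in the libraries at large (9.72% and 0.512%). Keratin UMIs outside epithelial cells were also unequal: after every cell was thinned to 1000 UMIs, Krt14 was seen in 69.0% of mural cells in Eed iKO-D and 21.7% in Ctrl-D (100.0% and 69.6% unthinned), and in 63.8% of endothelial cells and 60.5% of fibroblasts of Eed iKO-D. Xist UMIs alone were found in 212 mural cells of Eed iKO-D and 5 of Ctrl-D, and UMIs of Y-linked genes alone in 52 and 10, so transcripts of both sexes occurred in each library.

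Eed itself (chromosome 7, 89954654 to 89980983 in mm10) had 38.3 CPM (33.6 to 43.4) in mural cells of Eed iKO-D and 0 of 166106 UMIs in those of Ctrl-D. A floor of 3 UMIs over all Ctrl-D mural cells would be worth 18.1 CPM, and the level in Eed iKO-D was 2.12-fold that floor. The floor is a set value and not the end of an interval, so it gives no least ratio. Among epithelial cells (keratins 5, 14 and 6a at 200 or more per 10000) Eed was at 42.3 CPM in Eed iKO-D and 50.7 CPM in Ctrl-D. The library reads 3' ends and the labels do not name the deleted exons, so these levels do not check the deletion. Its partners in PRC2, the methyltransferase Ezh2 and the subunit Suz12, were at 62.3 and 87.9 CPM in mural cells of Eed iKO-D, and 66.2 and 72.2 CPM in those of Ctrl-D.

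The genes of the rule showed what the mural cells held, and their levels are given as a description. In Eed iKO-D, Rgs5 (chromosome 1, 169655501 to 169695813) stood at 3922 CPM in mural cells, 2.92 CPM in endothelial cells and 5.85 CPM in fibroblasts. Thinned to 1000 UMIs, it was seen in 82.4% of mural cells and in 1.37% of endothelial cells, 1.40% of fibroblasts and 1.36% of epithelial cells, and whether free RNA, doublets or the cells themselves gave the small shares was not tested (median UMIs per cell 17037, 13513, 20545 and 4612). Notch3 (chromosome 17, 32120820 to 32166852), the mural Notch receptor, was at 412 CPM in mural cells, 6.56 CPM in endothelial cells and 14.2 CPM in fibroblasts. Kcnj8 and Abcc9 lie beside each other on chromosome 6 (142564837 to 142571614 and 142587862 to 142702315) and encode the pore and the sulphonylurea receptor of one ATP-sensitive potassium channel. Kcnj8 was at 162 CPM in mural cells, 11.4 CPM in endothelial cells and 20.0 CPM in fibroblasts, and Abcc9 at 470.2, 77.3 and 42.2 CPM. Higd1b (chromosome 11, 102835849 to 102838040), a mitochondrial protein typical of pericytes, had 273 CPM in mural cells, 0.233 CPM in fibroblasts and no UMI in endothelial cells. Myh11 (chromosome 16, 14194535 to 14291372), the smooth muscle myosin heavy chain, was at 625 CPM in mural cells, 1.46 CPM in endothelial cells and 5.71 CPM in fibroblasts. In Ctrl-D the 23 mural cells held Rgs5 at 6436 CPM, Notch3 at 554, Kcnj8 at 144, Abcc9 at 361, Higd1b at 1324 and Myh11 at 1312 CPM.

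**Figure D2:**
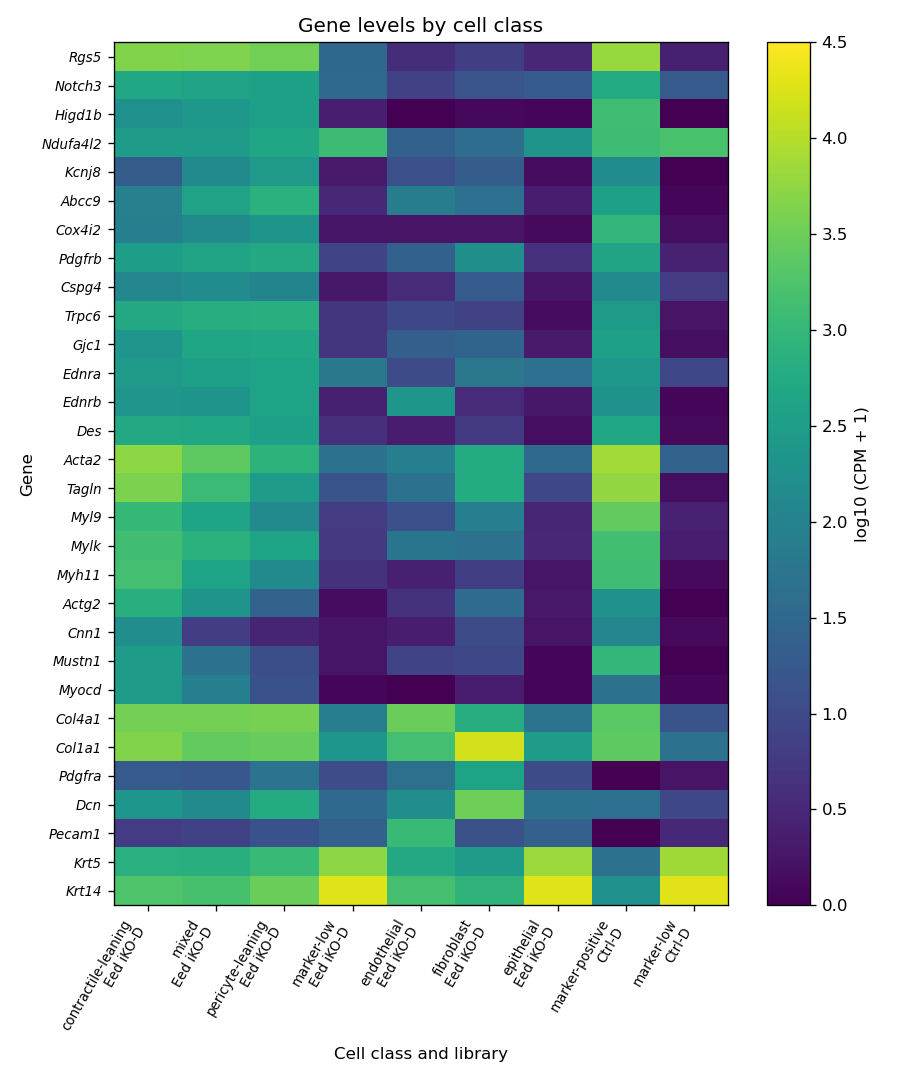
The colour gives log10(CPM + 1) of 30 genes (down the page) in 9 classes of cells (across), with summed UMIs of all cells of a class and no error shown. The mural columns are the only ones of the 9 with Rgs5 over 1000 CPM, and the column of Ndufa4l2-high members of Eed iKO-D holds Rgs5 at 32.6 CPM and Krt14 at 19154 CPM.

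Genes outside the rule followed the same cells. Of 25 pericyte genes listed, 2 had helped to sort the members and 1 had under 20 UMIs. Of the 22 others, 18 had 2-fold or more of their endothelial level in the mural cells of Eed iKO-D, 0 had 2-fold less, and the median log2 ratio was 4.19. Of all 14061 genes measured (20 or more UMIs in both classes together), 12.3% were at least 2-fold higher and 13.2% lower, with a median of 0.04. Against fibroblasts 16 of 22 pericyte genes were higher and 2 lower, with a median of 2.29, where 16.3% and 12.1% of 17451 genes passed 2-fold and the median of all genes was 0.27, a general shift to read the fibroblast comparison against. Centred on that median, 1957 genes of all measured were higher and 2661 lower, beside 2851 and 2111 uncentred. The lists were chosen with earlier results of these data known, and the cells were chosen on mural genes, so these counts describe the cells and test nothing.

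Among pericyte receptors and channels, Trpc6 (chromosome 9, 8544142 to 8680741), a calcium-permeable cation channel, had 617 CPM (598 to 637) in mural cells, 8.31 CPM in endothelial cells and 6.50 CPM in fibroblasts, and ranked first by its ratio to all other cells of the library among genes outside the rule. The rule genes are left out of this and every later ranking. The ratio was 74.3 (57.2 to 98.3) to endothelium and 95.026 (85.9 to 105) to fibroblasts. Pdgfrb, the receptor for PDGF-B, stood at 439 CPM (423 to 455) in mural cells, 23.6 CPM in endothelial cells and 173 CPM in fibroblasts, so it set mural cells apart from endothelium by 18.6 (15.8 to 21.9) and from fibroblasts by 2.53 (2.43 to 2.64). Cspg4, the NG2 proteoglycan, was at 115 CPM in mural cells, 2.48 CPM in endothelial cells and 19.5 CPM in fibroblasts. Cox4i2 (chromosome 2, 152754173 to 152765037), an alternative subunit of cytochrome c oxidase, had 157 CPM in mural cells and under 1 CPM in each of the other classes, 0.729 in endothelial cells and 0.698 in fibroblasts. The endothelin receptors parted: Ednra was at 351 CPM in mural cells, 10.2 CPM in endothelial cells and 58.7 CPM in fibroblasts, while Ednrb was at 308, 238 and 2.45 CPM. Ednrb was therefore shared with endothelium (ratio 1.29, 1.21 to 1.38) and nearly absent from fibroblasts, and Ednra was shared with fibroblasts more than with endothelium. Mcam (CD146) was also shared with endothelium, at 366 CPM in mural cells, 324 CPM in endothelial cells and 17.2 CPM in fibroblasts. The connexin Gjc1 stood at 393 CPM in mural cells, 22.4 CPM in endothelial cells and 27.1 CPM in fibroblasts. The 2 pericyte genes lower than in fibroblasts included Gpc3, a glypican, at 29.2 CPM in mural cells and 222 CPM in fibroblasts.

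Contractile genes were higher as a group in mural cells. Of 27 listed, 4 had helped to sort the members, and of the other 23, 17 were at least 2-fold higher and 1 lower than in endothelial cells (median log2 ratio 3.40), and 21 higher and 0 lower than in fibroblasts (median 3.17). Des (chromosome 1, 75360329 to 75368579), the muscle intermediate filament desmin, led the ranking of genes outside the rule against endothelium with 423 CPM in mural cells, 1.17 CPM in endothelial cells and 4.82 CPM in fibroblasts. Acta2 (chromosome 19, 34241090 to 34255590), smooth muscle actin, was less particular, with 2637 CPM in mural cells, 85.9 CPM in endothelial cells and 583 CPM in fibroblasts. Tagln (chromosome 9, 45929619 to 45936058), the actin-binding protein SM22, had 1745, 47.7 and 578 CPM in the same order. The fibroblast levels of both are those of cells that also held collagen, so Acta2 separated mural cells from fibroblasts by 4.52-fold and desmin by 87.8-fold. Ppp1r14a, the myosin phosphatase inhibitor CPI-17, was at 214 CPM in mural cells, 7.58 CPM in endothelial cells and 0.992 CPM in fibroblasts. Mylk, myosin light chain kinase, was at 772, 55.0 and 47.4 CPM.

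Transcription factors known from mural cells were higher in part. Of 25 measured against endothelium, 13 were at least 2-fold higher and 2 lower (median log2 ratio 1.07), and of 27 against fibroblasts 12 were higher and 3 lower (median 0.89). Myocd (chromosome 11, 65176561 to 65269989), the coactivator of serum response factor that drives smooth muscle genes, had 124 CPM in mural cells, no UMI in endothelial cells and 1.18 CPM in fibroblasts. Tbx2 and Foxs1 were at 80.5 and 36.3 CPM in mural cells, 1.75 and 0.437 CPM in endothelial cells and 1.27 and 5.66 CPM in fibroblasts. Nr2f2, the venous factor COUP-TFII, stood at 317 CPM in mural cells, 109 CPM in endothelial cells and 21.7 CPM in fibroblasts. Ebf1 was widely shared, at 2351, 516 and 1351 CPM.

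Genes that set vascular tone were also higher as a group. Of 23 measured against endothelium, 14 were at least 2-fold higher and 3 lower (median log2 ratio 3.57), and of 24 against fibroblasts 16 were higher and 3 lower (median 2.28). The nitric oxide receptor, soluble guanylate cyclase, is built of Gucy1a1 and Gucy1b1, which had 249.7 and 186 CPM in mural cells, 2.48 and 3.06 CPM in endothelial cells and 7.40 and 4.84 CPM in fibroblasts. The alternative subunit Gucy1a2, which is on none of the lists, was among the 8 highest ratios to endothelium, at 207 CPM in mural cells, 1.60 CPM in endothelial cells and 8.31 CPM in fibroblasts. Downstream of it, the cGMP-dependent kinase Prkg1 was at 1697, 104 and 616 CPM, and the phosphodiesterase Pde3a at 921, 30.2 and 196 CPM. The L-type calcium channel Cacna1c had 697 CPM in mural cells, 58.6 CPM in endothelial cells and 415 CPM in fibroblasts. The calcium-activated chloride channel Ano1 was at 245, 9.77 and 5.89 CPM. One of the tone genes that ran the other way was Calcrl, the receptor for adrenomedullin and CGRP, at 69.8 CPM in mural cells and 535 CPM in endothelial cells.

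Ligands and receptors that link mural cells to endothelium were found on opposite sides of that pair. Pdgfb, the endothelial ligand that recruits mural cells, was at 15.7 CPM in mural cells and 210.3 CPM in endothelial cells, 13.4-fold lower, opposite to its receptor Pdgfrb. Pdgfa, a ligand of PDGFRA, was high in the mural cells, at 294 CPM against 23.031 CPM in endothelial cells and 15.2 CPM in fibroblasts, while its receptor Pdgfra was at 33.3 CPM in mural cells and 406 CPM in fibroblasts. Epithelial cells of Eed iKO-D had Pdgfa at 70.8 CPM, and with 32 mural cells left out that held keratin UMIs (Krt5, Krt14 and Krt6a at 100 or more per 10000) or immune UMIs (Ptprc, Cd52, Tyrobp and Fcer1g at 5 or more per 10000) it stood at 328 CPM. Of the Notch pathway, 2 of 14 genes were at least 2-fold higher and 5 lower than in endothelium. The endothelial ligand Dll4 was at 0.314 CPM in mural cells and 157 CPM in endothelial cells, and the endothelial receptor Notch4 at 2.82 and 69.8 CPM. The targets Heyl and Hey2, which act downstream of NOTCH3 in mural cells, were at 109 and 27.3 CPM in mural cells, 4.23 and 0.292 CPM in endothelial cells and 21.8 and 0.481 CPM in fibroblasts. Jag1, the ligand that mural cells and endothelium can both present, was at 174, 98.5 and 112 CPM. Against fibroblasts 7 of 13 Notch genes were higher, 0 were lower and the median was 1.44. Without the cells that held keratin or immune UMIs it was 0.62.

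Most angiogenic ligands and receptors were lower in mural cells than in endothelium, 12 of 20 lower against 4 higher (median -1.44). Flt1 belongs to the rule and is not counted. The VEGF receptor Kdr was at 0.785 CPM in mural cells and 396 CPM in endothelial cells, and the angiopoietin receptor Tek at 3.45 and 116 CPM. The angiopoietins were split between both cell types: Angpt1, the agonist of TEK, had 49.1 CPM in mural cells and 3.79 CPM in endothelial cells, a ratio of 13.0 (8.68 to 20.2). Angpt2, its context-dependent antagonist, had 71.6 CPM in mural cells and 335 CPM in endothelial cells, 4.68-fold lower. Fibroblasts held Angpt1 at 62.4 CPM. Of 20 TGF-beta and BMP genes, 4 were higher and 5 lower than in endothelium, and 3 higher and 8 lower than in fibroblasts. Endoglin (Eng), an endothelial co-receptor, was at 72.8 CPM in mural cells and 509.9 CPM in endothelial cells.

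Mural and endothelial cells lay close together in basement membrane genes, with 3 of 17 at least 2-fold higher, 3 lower and the median at 0.22. Col4a1, the chief collagen of that sheet, had 3677 CPM in mural cells, 2905 CPM in endothelial cells and 633 CPM in fibroblasts, and its partner Col4a2 1917, 1783 and 357 CPM. Col18a1, source of endostatin, was at 806, 691 and 84.1 CPM. Interstitial matrix genes lay between both neighbours: 19 of 29 were higher and 1 lower than in endothelium (median 1.34), and 1 higher and 17 lower than in fibroblasts (median -1.50). Col1a1 stood at 3327 CPM in mural cells, 1453 CPM in endothelial cells and 15312 CPM in fibroblasts, but its UMIs were widespread in this library, seen after thinning in 46.7% of epithelial cells of Eed iKO-D and 0.392% of those of Ctrl-D, beside 74.6% of mural cells of Eed iKO-D. Mgp, the matrix Gla protein that limits vessel calcification, was the interstitial gene higher in mural cells than in fibroblasts, at 1481 CPM in mural cells, 101 CPM in endothelial cells and 632 CPM in fibroblasts.

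Among secreted regulators, Serpine2, protease nexin 1, was at 1045 CPM in mural cells, 47.2 CPM in endothelial cells and 269 CPM in fibroblasts. Of 18 proteases and inhibitors 7 were higher and 2 lower than in endothelium, and 3 higher and 7 lower than in fibroblasts. Chemokines and cytokines were 8 of 19 higher and 3 lower than in endothelium, and 1 higher and 11 lower than in fibroblasts (medians 0.72 and -1.58). The one higher than in fibroblasts was Il34, a ligand of the CSF1 receptor on macrophages, with 166 CPM in mural cells, 4.52 CPM in endothelial cells and 24.6 CPM in fibroblasts. Epithelial cells held it at 3.98 CPM. Il6 was at 394, 82.8 and 247 CPM in mural cells, endothelial cells and fibroblasts.

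Cell cycle genes were 13 of 22 higher and 0 lower than in fibroblasts (median log2 ratio 1.05, and 0.78 once centred on all genes), and 0 higher and 0 lower than in endothelium (median 0.05). Mki67, the proliferation marker, was at 204 CPM in mural cells, 155 CPM in endothelial cells and 80.7 CPM in fibroblasts. Epithelial cells held 173 CPM, and mural cells without keratin or immune UMIs 213 CPM. Hox genes, which keep a positional record, were 9 of 25 higher and 11 lower than in endothelium, and 5 of 28 higher and 2 lower than in fibroblasts. PRC2 genes had 0 of 12 higher and 0 lower than in endothelium (median 0.10) and 2 higher and 0 lower than in fibroblasts (median 0.53). Hypoxia and glycolysis genes had medians of 0.36 against endothelium (1 of 20 higher, 2 lower) and 0.51 against fibroblasts (6 higher, 3 lower), and without cells that held keratin or immune UMIs the medians were -0.12 and -0.07. Immediate-early genes, which respond to dissociation as well as to growth signals, were 0 of 19 higher and 0 lower than in endothelium (median 0.02), and 0 higher and 2 lower than in fibroblasts (median -0.38).

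The ranking of single genes added some that are on none of the lists. H2-M9, a non-classical histocompatibility gene, was among the 12 highest ratios to all other cells, with 175 CPM in mural cells, 0.875 CPM in endothelial cells and 1.78 CPM in fibroblasts. H2-M genes resemble one another, so how reads were divided among them is uncertain. Csmd1, which encodes a large membrane protein with complement-control domains, was at 481 CPM in mural cells, 3.21 CPM in endothelial cells and 135 CPM in fibroblasts, with a UMI in 144 of 319 mural cells and no more than 5.16% of its UMIs in 1 cell. Adgrf5 and Apold1, better known from endothelium, were at 245 and 189.6 CPM in mural cells, 512 and 355 CPM in endothelial cells and 4.64 and 3.27 CPM in fibroblasts, and were among the 8 highest ratios to fibroblasts. The lowest ratios to endothelium were those of endothelial genes: Mecom stood at 1.57 CPM in mural cells and 771 CPM in endothelial cells, Selp at 0.785 and 586 CPM, and Gpihbp1 at 0.157 and 427 CPM. The lowest ratios to fibroblasts were those of fibroblast genes such as Crabp1 at 7.38 CPM in mural cells and 287 CPM in fibroblasts, Il1rl1 at 2.51 and 165 CPM, and Lrrc15 at 13.7 and 309 CPM.

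Markers of other cell types were present in the mural cells. Summed, 8 blood endothelial markers had 181 CPM in mural cells of Eed iKO-D and 2366 CPM in endothelial cells, 5 lymphatic markers 7.22 and 935 CPM, so the endothelial class held lymphatic cells too. Fibroblast markers had 717 CPM, epithelial markers 4216 (beside 2678 CPM in endothelial cells and 1587 CPM in fibroblasts), neutrophil markers 159, macrophage markers 85.8 and T cell markers 29.7 CPM. Schwann cell, melanocyte, adipocyte and skeletal muscle markers each stayed under 5 CPM (0.628, 1.26, 0.471 and 3.61 CPM). In Ctrl-D mural cells the epithelial sum was 343 CPM, the fibroblast sum 187, the blood endothelial sum 349 and the neutrophil sum 18.1 CPM, and lymphatic, Schwann cell, melanocyte, adipocyte and skeletal muscle markers had no UMI. Doublets were not called, and the part of doublets and free RNA in each level was not tested beyond leaving out cells with keratin or immune UMIs.

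**Figure D3:**
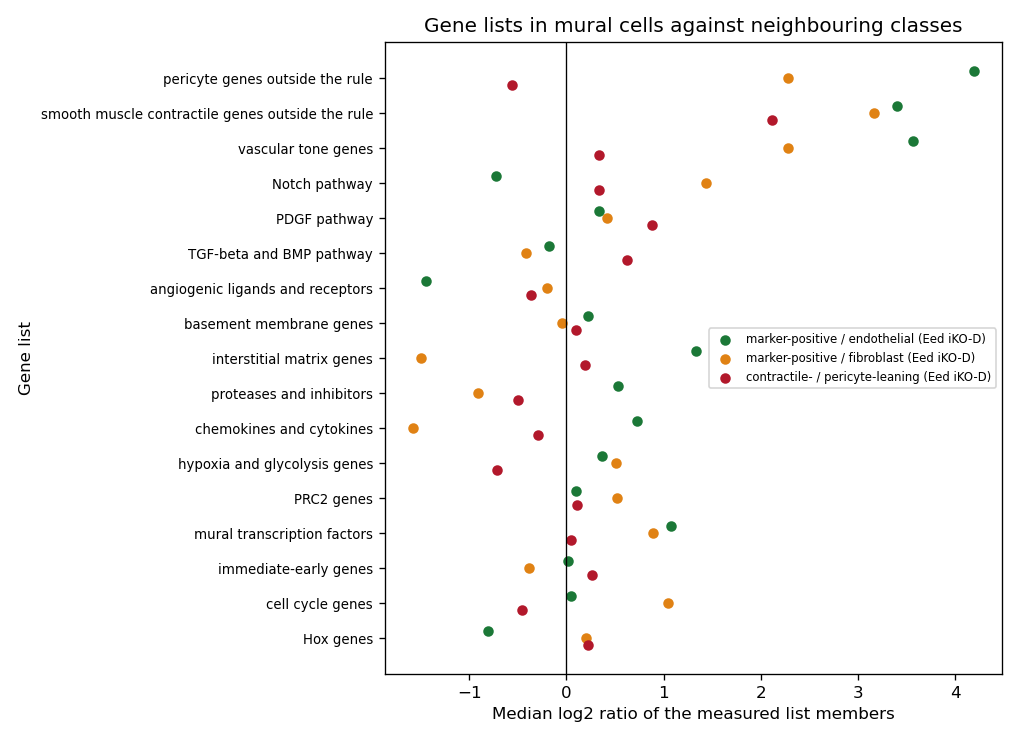
Each dot is the median log2 ratio of 1 gene list (down the page) for mural against endothelial cells, mural cells against fibroblasts, and contractile-leaning against pericyte-leaning mural cells, all in Eed iKO-D. Contractile genes lie at 3.40, 3.17 and 2.12, pericyte genes at 4.19, 2.29 and -0.56, and interstitial matrix genes lie on opposite sides of 0 against endothelium and fibroblasts.

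Mural cells ran over a range from contractile to pericyte character. Within each cell the UMIs of the 5 contractile and 5 pericyte genes were set against each other, and cells with at least 2/3 contractile UMIs were called contractile-leaning, those with at most 1/3 pericyte-leaning, and the rest mixed. Eed iKO-D had 107 contractile-leaning, 55 mixed and 157 pericyte-leaning cells, and Ctrl-D had 12, 3 and 8. Of the 319 cells in Eed iKO-D, 262 held UMIs of both kinds, 31 had a contractile share of exactly 0 and 26 of exactly 1. Among the 263 cells with 10 or more such UMIs, 167 had a share between 0.1 and 0.9, and 45 of the 319 lay within 0.05 of a limit. The end bins were the fullest, with 66 cells under 0.1 and 55 from 0.9. The classes are stretches of that share, and whether separate types lie behind them was not tested. Their median depth was 18502 UMIs in contractile-leaning and 16138 in pericyte-leaning cells. Contractile-leaning cells were 40.5% (34.6 to 46.7) of the cells at both ends in Eed iKO-D and 60% (36.1 to 80.9) in Ctrl-D, and these intervals overlap.

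**Figure D4:**
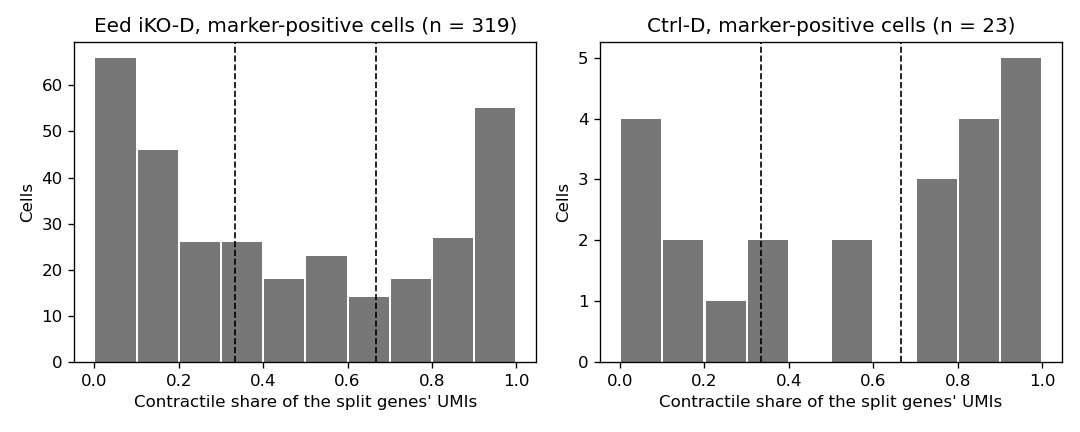
Histograms of the share of contractile UMIs among the 10 split genes for the mural cells of Eed iKO-D (319 cells) and Ctrl-D (23 cells), with lines at 1/3 and 2/3. Eed iKO-D has 66 cells under 0.1 and 55 from 0.9, with cells in every bin between them.

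Contractile genes that had no part in the split were mostly higher at the contractile end. Of 23, 19 were at least 2-fold higher and 0 lower, with a median of 2.12. Of all 11648 genes, 4.7% were 2-fold higher and 7.55% lower, with a median of -0.08. The cells had been sorted on 5 contractile genes. Higher levels of like genes follow from that sorting, so these counts describe it and test nothing. Acta2 had 5368 CPM (5271 to 5467) in contractile-leaning, 2409.7 CPM in mixed and 825 CPM (793 to 857) in pericyte-leaning cells, a ratio of 6.51 (6.24 to 6.79) between the ends. Tagln had 4126, 1159.7 and 302 CPM in the same order, a ratio of 13.7 (12.8 to 14.6), and Myl9, a regulatory myosin light chain, 991, 406 and 142 CPM. Mixed cells stood between both ends for each of these. Mustn1, a small nuclear protein of muscle, had 292, 47.5 and 11.2 CPM, and Tpm2, beta-tropomyosin, 1572, 617 and 361 CPM. Desmin was much more even, at 513, 484 and 340.0 CPM (ratio of the ends 1.51, 1.39 to 1.64). The split itself rested on genes such as Cnn1, calponin, at 160.3, 5.48 and 1.92 CPM, and Myh11, at 1439.6, 412 and 135 CPM, which are descriptions only. Rgs5 belongs to the rule but not to the split, and was at 4387, 4225 and 3494 CPM. It gave 62.9% of the 7-gene sum that admitted these mural cells, so these levels are a description only.

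The contractile end held the coactivator Myocd at 306 CPM, against 84.9 in mixed and 12.5 CPM in pericyte-leaning cells, a ratio of 24.5 (17.7 to 34.7), with a UMI in 80 of 107 contractile-leaning cells. Ctnna3, alpha-T-catenin of muscle junctions, was at 432, 41.1 and 17.3 CPM, and Kcnab1, a potassium channel beta subunit, at 266, 28.3 and 12.8 CPM. Dgkb, a diacylglycerol kinase, was at 125, 31.0 and 4.49 CPM. In mixed cells each of the 4 lay between both ends. Ren1, renin, was among the 8 genes highest at the contractile end, with 63.9 CPM in contractile-leaning cells and no UMI in the pericyte-leaning ones, but 93.5% of its UMIs lay in 1 cell (129 of 138). Stfa1 was likewise 1 cell, so neither describes the class.

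Of 20 vascular tone genes, 3 were at least 2-fold higher at the contractile end and 2 lower, with a median of 0.34. Of all genes measured, 4.7% were higher and 7.55% lower, with a median of -0.08. P2rx1, the ATP-gated channel of sympathetic vasoconstriction, was at 57.9 CPM in contractile-leaning, 1.83 in mixed and 1.60 CPM in pericyte-leaning cells, a ratio of 36.1 (15.1 to 113) between the ends. Ryr2, a ryanodine receptor, was at 43.5, 0 and 1.28 CPM (ratio 33.9, 12.8 to 127). Those 2 had the highest ratios of the 20 genes. Cacna1c and Itpr1, an intracellular calcium release channel, were at 875 and 236 CPM in contractile-leaning and 606 and 164 CPM in pericyte-leaning cells, and Ano1 ran the other way, at 137, 257 and 317 CPM.

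At the pericyte end the differences in pericyte genes were smaller. Of 21, 1 was at least 2-fold higher in contractile-leaning cells and 5 were lower, with a median of -0.56. The cells had been sorted on 5 pericyte genes too, so these counts also describe the sorting. Cox4i2 had 86.6 CPM in contractile-leaning, 138 in mixed and 212 CPM in pericyte-leaning cells, 2.44-fold lower at the contractile end. Gjc1 was at 218, 433 and 500.01 CPM, and Cygb, cytoglobin, at 134, 255 and 319 CPM. Art3, an ADP-ribosyltransferase family member, was at 19.5, 78.5 and 103 CPM. Pdgfrb and Trpc6 were only modestly graded, Pdgfrb with 334, 424 and 516 CPM and Trpc6 with 526, 628 and 677 CPM, so both ends shared them. Kcnj8 and Abcc9, which define the pericyte side of the split, had 20.4 and 91.7 CPM in contractile-leaning cells, and 269 and 762 CPM in pericyte-leaning cells.

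Secreted and matrix genes also differed along the range. Ccn2, connective tissue growth factor, was at 399 CPM in contractile-leaning, 92.2 in mixed and 50.033 CPM in pericyte-leaning cells, and Thbs1, thrombospondin 1, at 712, 445 and 179 CPM. The ligands Tgfb2 and Tgfb3 were at 484 and 128 CPM in contractile-leaning cells, and 197 and 28.5 CPM in pericyte-leaning cells, part of 6 of 19 TGF-beta and BMP genes higher and 1 lower. The laminin chains parted: Lama5 was at 88.0 CPM in contractile-leaning and 10.9 CPM in pericyte-leaning cells, and Lama2 at 112 and 269 CPM. Pdgfd, a second ligand of PDGFRB, was at 47.7, 1.83 and 12.8 CPM in contractile-leaning, mixed and pericyte-leaning cells. Col4a1 was level, at 3626, 3598 and 3739 CPM. Serpine2 was higher towards the pericyte end, with 562, 972 and 1405 CPM. The secreted glycoprotein Ndnf and the GDNF receptor Gfra1 were among the 8 genes lowest in contractile-leaning cells, at 1.85 and 4.63 CPM there and 58.1 and 72.8 CPM in pericyte-leaning cells. The others of those 8 were Serpinb2 and Prg4, with 59.3% and 49.8% of their pericyte-leaning UMIs in 1 cell, Saa3 with 27.4%, and Cemip, Mmp9 and Mmp10.

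The pericyte-leaning cells also held more of the epithelial markers, 3165 CPM in contractile-leaning and 5471 CPM in pericyte-leaning cells, and more hypoxia gene UMIs, with 0 of 19 genes 2-fold higher at the contractile end, 5 lower and a median of -0.72. Vegfa stood at 40.3 CPM in contractile-leaning and 107 CPM in pericyte-leaning cells. Without the cells that held keratin or immune UMIs it was at 40.7 and 42.9 CPM, and the median of the hypoxia genes was -0.37. Acta2 was at 5686 and 1014 CPM, and Mmp10 at 12.9 and 189.9 CPM, without the same cells, so these kept their difference. In Ctrl-D the same split, with 12 and 8 cells, gave Acta2 10764 and 1504 CPM and Tagln 8943 and 877 CPM in contractile-leaning and pericyte-leaning cells.

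Most of the Ndufa4l2-high members were rich in keratins, and the values below are sums over all of them. They held Krt14 at 19154 CPM in Eed iKO-D and 19855 CPM in Ctrl-D, beside 19172 and 20217 CPM in other epithelial cells, and Ndufa4l2 (chromosome 10, 127514967 to 127517154) at 1198 and 1637 CPM, beside 214 and 178 CPM. Acta2 was at 48.7 CPM and Pdgfrb at 7.09 CPM in those of Eed iKO-D. Against the mural cells of that library 21 of 22 pericyte genes and 20 of 23 contractile genes were at least 2-fold lower and none was higher, where 11.6% of 13200 genes were higher and 30% lower (2226 and 3029 genes once centred on the median of all genes, beside 1533 and 3963). The 2 sets had been parted by their UMIs of 10 contractile and pericyte genes. Lower levels of like genes follow from that sorting, so these counts describe it and test nothing. Against other epithelial cells of Eed iKO-D, 9 of 23 pericyte genes and 7 of 20 contractile genes were at least 2-fold higher and 0 lower. Of all 17534 genes, 6.19% were higher and 13.1% lower. In Ctrl-D 2 of 13 pericyte and 0 of 14 contractile genes were higher, and 2 and 1 lower. The members had met the mural limit and the other epithelial cells had not, so these counts too are a description. The other hypoxia genes went with Ndufa4l2: in Eed iKO-D 7 of 20 were at least 2-fold higher than in other epithelial cells and 0 lower (median log2 ratio 0.78), where 6.19% of 17534 genes were higher, 13.1% lower and the median of all genes was -0.15 (1427 higher and 1802 lower once centred on it, beside 1085 and 2299). In Ctrl-D 8 of 20 were higher and 1 lower (median 0.70), where 4.86% of 14311 genes were higher, 6.64% lower and the median was -0.12 (854 higher and 762 lower once centred, beside 695 and 950). Bnip3, a mitophagy receptor induced by low oxygen, was at 374 CPM in Ndufa4l2-high members and 112 CPM in other epithelial cells of Eed iKO-D, and at 163 and 32.3 CPM in Ctrl-D. Egln3, the oxygen-sensing prolyl hydroxylase PHD3, was at 498 and 175 CPM in Eed iKO-D, and 199 and 51.1 CPM in Ctrl-D. Car9, carbonic anhydrase 9, was at 41.4 and 6.63 CPM in Eed iKO-D. Vegfa, the hypoxia-induced signal to endothelium, was at 617 and 283 CPM in Eed iKO-D, and 118 and 57.7 CPM in Ctrl-D. Most of these members had entered through Ndufa4l2, itself a hypoxia gene, and the other epithelial cells were held under the mural limit. Higher levels of like genes can follow from that sorting, so the hypoxia counts describe the cells and test nothing. Cell cycle genes ran lower, 0 of 22 higher and 16 lower in Eed iKO-D (median -1.33) and 0 higher and 4 lower in Ctrl-D (median -0.42).

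Beyond these lists, the Ndufa4l2-high members of each library had leading genes of their own. In Eed iKO-D the highest ratios to other epithelial cells included the proteases Mmp9 (153 and 14.5 CPM), Mmp13 (439 and 88.9 CPM) and Mmp3 (199.97 and 45.3 CPM), the placental growth factor Pgf (181 and 40.1 CPM) and the cytokine Tslp (156 and 36.9 CPM), each with the Ndufa4l2-high members first. In Ctrl-D they included Krt77, a keratin of suprabasal and sweat duct epithelium, at 325 CPM in Ndufa4l2-high members and 11.4 CPM in other epithelial cells, and the peptide hormone gene Pyy at 171 and 6.65 CPM. Igfbp3 was at 191 and 39.3 CPM. Because Ctrl-D contributed 426 such members and only 23 mural cells, a comparison of the libraries over all members mixes both sets of cells. In it 34.5% of 13972 genes were at least 2-fold higher in Eed iKO-D and 7.45% lower, that is 4819 and 1041 genes, with a median of 0.53, and 3185 and 2338 once centred on that median. The highest were led by mural and stromal genes such as Prkg1 (943 CPM in Eed iKO-D and 21.1 CPM in Ctrl-D) and the lowest were led by keratins such as Krt10 (26.9 and 1195 CPM). Over all 504 members of Eed iKO-D, 14.6% of 14749 genes were 2-fold higher and 15.7% lower than in endothelium, 15.6% of 17690 higher and 14.8% lower than in fibroblasts, and 8.5% of 21489 higher and 15.6% lower than in all other cells. The 12 highest against all other cells, Trpc6, Des, Mylk, Ppp1r14a, Gucy1a1, Synpo2, H2-M9, Gjc1, Gucy1b1, Cox4i2, Gucy1a2 and Myocd, were the same with the mural cells alone. The mural cells are part of the 504 members, and Synpo2 had helped to sort them, so this likeness is a description and no check.

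Between the libraries, mural cells of Eed iKO-D were set against the 23 of Ctrl-D. In the Ctrl-D cells 1 UMI was worth 6.02 CPM, so low genes could not be compared. Of 12117 genes measured, 21.2% were at least 2-fold higher in Eed iKO-D and 16.2% lower, with a median of 0.06, and with 1 library per group these shares hold counting error, cell make-up, depth and genotype together, which cannot be told apart.

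Contractile genes were the group with the lowest median: 0 of 23 were 2-fold higher in Eed iKO-D, 13 were 2-fold lower and the median log2 ratio was -1.52. Acta2 had 2637 CPM (2597 to 2677) in mural cells of Eed iKO-D and 7561 CPM (7149 to 7991) in those of Ctrl-D, a ratio of 0.349 (0.329 to 0.370). Tagln was at 1745 CPM in Eed iKO-D and 5918 CPM in Ctrl-D (ratio 0.295, 0.276 to 0.315), and Myl9 at 475 and 2631 CPM (ratio 0.181, 0.163 to 0.200). Desmin differed less, at 423 and 499.7 CPM (ratio 0.847, 0.681 to 1.07). All these intervals cover counting error only and leave out the spread among cells and between libraries. Contractile-leaning cells were the larger share in Ctrl-D, so the ends were also compared on their own. The median of the contractile genes was -1.004 among contractile-leaning and -0.50 among pericyte-leaning cells, and -1.29 without cells that held keratin or immune UMIs. The ends in Ctrl-D were 12 and 8 cells, where 3 UMIs were worth 34.1 and 62.7 CPM. Low genes of the list could not be compared there. Acta2 was at 5368 CPM in Eed iKO-D and 10764 CPM in Ctrl-D among contractile-leaning cells, and 825 and 1504 CPM among pericyte-leaning cells. Mustn1 and Sncg, gamma-synuclein, were among the 6 lowest of all genes, at 113 and 38.6 CPM in Eed iKO-D and 951 and 367 CPM in Ctrl-D. The others were Rrad (49.6 and 602 CPM), Rasd1 (25.6 and 319 CPM), the interferon-inducible GTPase Iigp1 (40.2 and 464 CPM) and Fxyd1, a regulator of the sodium pump (40.5 and 337 CPM), Eed iKO-D first.

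Pericyte genes as a list were level, with 2 of 22 higher, 4 lower and a median of -0.05, yet single members differed. Pdgfrb was at 439 CPM in Eed iKO-D and 421 CPM in Ctrl-D (ratio 1.04, 0.821 to 1.34), while Trpc6 was at 617 and 277 CPM (ratio 2.23, 1.67 to 3.05). Cox4i2 ran the other way, at 157 and 897 CPM (ratio 0.175, 0.147 to 0.209). The mitochondrial rule genes Higd1b and Ndufa4l2 lay on the same side as Cox4i2, at 273 and 369 CPM in Eed iKO-D and 1324 and 1252 CPM in Ctrl-D. These 3 were put together after their values were seen. Immediate-early genes were 0 of 19 higher and 7 lower (median -0.85), for example Ier2 at 152 CPM in Eed iKO-D and 728 CPM in Ctrl-D and Atf3 at 578 and 1656 CPM, and their median was -1.07 and -0.79 within contractile-leaning and pericyte-leaning cells. Hypoxia and glycolysis genes were 9 of 19 higher and 2 lower (median 0.74, and 0.55 without cells that held keratin or immune UMIs). The matrix gene Fn1, fibronectin, was at 1247 and 349 CPM (ratio 3.57, 2.76 to 4.71), while basement membrane genes at large were 3 of 17 higher and 3 lower. Vascular tone genes were 2 of 20 higher and 4 lower, Notch genes 3 of 11 and 2, transcription factors 8 of 25 and 6, and Hox genes 1 of 16 and 6. Beside these stand 21.2% higher and 16.2% lower of all genes measured. Zeros weighed on 3 of these lists. With them set to 3 UMIs, the median went from -0.08 to -0.45 for Notch genes, 0.77 to 0.47 for transcription factors and -0.41 to -0.73 for Hox genes.

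The 6 highest genes in Eed iKO-D (Nrg1, Saa3, Col17a1, Hp, Lama3 and Mmp3) all had no UMI in the 23 Ctrl-D cells. Nrg1, the ERBB ligand neuregulin 1, was at 338 CPM, 18.7-fold the set floor of 3 UMIs over the Ctrl-D cells, with 2653 CPM in epithelial cells and 298 CPM in fibroblasts of Eed iKO-D. Col17a1, the hemidesmosome collagen of basal keratinocytes, was at 201 CPM in mural cells and 1001 CPM in epithelial cells, and Lama3 at 166 and 901 CPM. The acute-phase genes Saa3 and Hp were at 331 and 199 CPM in mural cells and 1468 and 279.8 CPM in fibroblasts, and the protease Mmp3 at 152 and 1144 CPM. Without cells that held keratin or immune UMIs, Nrg1 stood at 251 CPM, Col17a1 at 72.7 CPM and Hp at 217 CPM. Krt14, which mural cells do not make, was at 2391 CPM in mural cells of Eed iKO-D and 187 CPM in those of Ctrl-D (ratio 12.8, 9.02 to 18.9), and the epithelial marker sum at 4216 and 343 CPM. Both were higher in Eed iKO-D, as these 6 genes were, and their part was not tested beyond leaving out those cells.

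**Figure D5:**
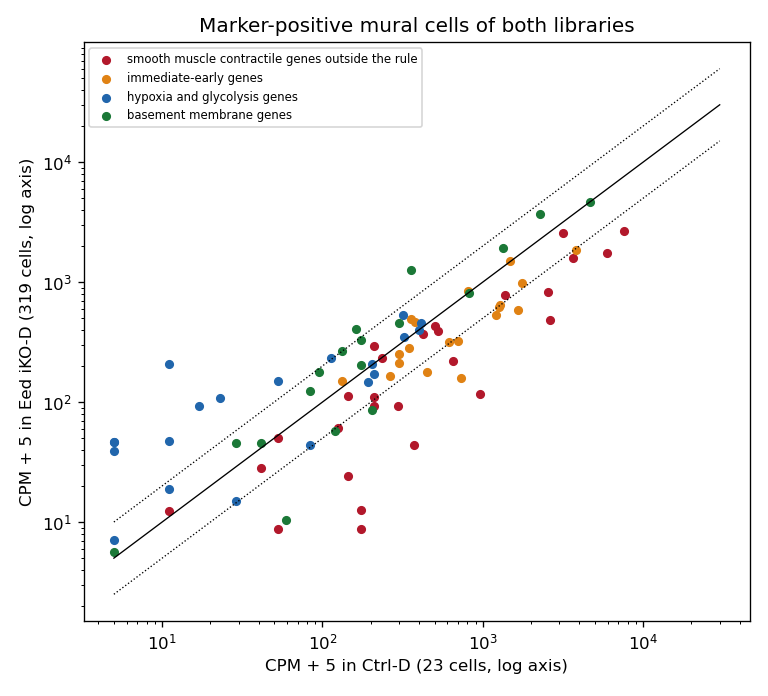
Each point is 1 gene of 4 lists, with its CPM + 5 in mural cells of Ctrl-D across and of Eed iKO-D up the page, on log axes, with a solid line of equality and dotted lines at 2-fold. Contractile genes lie mostly below equality, as Acta2 does with 2637 CPM in Eed iKO-D and 7561 CPM in Ctrl-D, while basement membrane genes lie on both sides of it, 3 of 17 past 2-fold each way, as with Col4a1 at 3677 and 2258 CPM and Lamb2 at 81.1 and 199 CPM.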

How the data were processed

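Droplet-based 3' single-cell RNA sequencing was done on 1 library of Eed iKO-D and 1 of Ctrl-D tumours. The deposited matrices hold raw UMI counts, not normalized, of 32285 gene IDs in each barcode called as a cell. The sources differ on the Cell Ranger version: 7.1.0 per the file headers, 2.1.0 per the labels' protocols and 8.0 per the submitters' processing notes, which give mm10 as the build. Positions are from an mm10 annotation that holds 99.8% of the IDs.

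UMIs were summed per class and library and given as CPM with exact Poisson intervals. Ratios carry exact conditional binomial intervals and shares Clopper-Pearson ones. Log2 ratios had 0.5 UMI added. Genes with 20 or more UMIs in both classes together were measured, and 2-fold was the limit. The 12 genes of the rule, and where used the 10 of the split, were left out of counts. Endothelial cells and fibroblasts needed 10 and 30 of their marker UMIs per 10000 and under 10 of the mural genes. Fibroblasts with keratin or immune UMIs at the limits given above were left out, while mural and endothelial cells with them (32 and 52 in Eed iKO-D) stayed in unless stated. Doublets were not called. The members and lists were chosen with earlier results of these data known.

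Genes were named by rank in a comparison (50 or more UMIs and 50 or more CPM where higher, 5 CPM added) or as list members highest, most or least different. Others, such as Il34, Jag1, Angpt1, Pgf and Mki67, were picked with their values in view. The summing and ratio steps were tested on simulated data. Alternatives were other limits for members, genes and fold, cells with keratin or immune UMIs left out, equal weight per cell, centring and thinning. Python 3.11.15, numpy 2.4.6, scipy 1.17.1, pandas 2.3.3 and matplotlib 3.10.9 were used.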

Additional observations from a re-analysis of the deposited data

How the results depend on the processing

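The number of members depended most on the rule. Eed iKO-D had 295 and Ctrl-D 134 members with the mural sum at 20 or more per 10000, and 314 and 50 without cells that held keratin or immune UMIs. Alternatives chosen after seeing the data gave 319 and 23 (marker-positive), 331 and 24 (no Ndufa4l2), and 287 and 23 (marker-positive without keratin or immune UMIs). Over all members of Eed iKO-D, no filter on low genes gave 3759 higher and 5131 lower than endothelium, 5196 higher than fibroblasts and 6306 higher than all other cells. The same for a 1.5-fold limit was 3251 and 3697, 4855, and 3361 with 5129 lower. Genes higher than in all other cells numbered 3445 with the stricter sum, 3639 without keratin or immune cells, 3446 marker-positive, 3535 without Ndufa4l2 and 3394 with equal weight per cell. The split gave 357 higher and 508 lower from 50 UMIs, 2761 and 3874 with no filter, and 1226 and 1940 at 1.5-fold. Between Eed iKO-D and Ctrl-D over all members, counts were 2570 and 1965 (marker-positive), 2438 and 1955 (no Ndufa4l2), 3185 and 2338 (centred), 8172 and 2174 (no filter), and 1992 lower at 1.5-fold. For the mural cells alone, no filter and 1.5-fold gave 4188 and 2941 higher and 4774 and 2874 lower than endothelium, 7559 and 5323 higher than fibroblasts, and 8800 and 5408 higher than all other cells. Between the libraries 1283 were lower from 50 UMIs, 8769 with no filter and 3465 at 1.5-fold. Looser limits admit more genes by construction. For the other changes the cause was not tested. Of the values of single genes and list medians, equal weight per cell moved 84 and left 189 within their 95% interval (genes) or 1.5-fold (lists), leaving out cells with keratin or immune UMIs moved 59 and left 214, thinning before the split moved 22 and left 34, and a split at 1/2 moved 19 and left 35. Lmod1 (log2 ratio 0.31) and Vtn (-0.26) changed sign between the libraries with pericyte-leaning cells only. Both genes had helped to make that split. In the 8 pericyte-leaning cells of Ctrl-D, Lmod1 had no UMI and Vtn was at 20.9 CPM, where 3 UMIs were worth 62.7 CPM. The part of a UMI added to each count weighs on ratios this low, so these sign changes are not read as differences. The 23 mural cells of Ctrl-D limit every comparison between the libraries. No paired analysis was possible because each group had 1 library.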
